A study of Saccharomyces cerevisiae with 15 samples.

Results

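The Yap family of budding yeast, Saccharomyces cerevisiae, is a set of 8 transcription factor genes: YAP1, CAD1 (also named YAP2), YAP3, CIN5 (YAP4), YAP5, YAP6, YAP7 and ARR1 (YAP8). They were picked by gene name and not by a cut on measured values, though earlier results of these data were known. Each had 1 probe set, so 8 probe sets of 10928 on the array and 8 genes of the 5588 yeast genes measured are described here. Total RNA was hybridised to 15 1-colour Affymetrix arrays in 5 groups of 3: wild type without treatment (0 min), and wild type, yap1, yap8 and the double mutant yap1 yap8 (called y1y8 on the samples), each exposed to arsenate, AsV, for 60 min. The samples' labels give no arsenate dose, parent strain or deletion marker. The submitters' design text names 2 mM arsenate, but it describes growth in arsenate to exponential phase and double mutants transformed with empty vectors or with vectors bearing either deleted gene, and the labels tie no plasmid to a group. No untreated mutant was analysed here, and nothing says that the 3 arrays of a group came from separate cultures, so p-values measure the spread between these arrays, which may be technical.

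Yap proteins are bZIP factors: a basic region contacts DNA and a leucine zipper joins a pair of subunits, and the basic region of this family differs from that of other yeast bZIP factors such as Gcn4. Yap1, the best known, is held out of the nucleus by the exportin Crm1 until oxidation of its cysteines, through the peroxidase Hyr1 and its partner Ybp1 for hydrogen peroxide, makes it accumulate there and switch on antioxidant genes. Arr1 senses arsenite and acts on ARR2, which encodes an arsenate reductase, and ARR3, which encodes an arsenite exporter. 3 pairs of the family, YAP1 with CAD1, CIN5 with YAP6 and YAP5 with YAP7, are paralogues kept since the whole-genome duplication.

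Signal is the brightness of a probe set on a linear scale, and the values below are quantile-normalised between arrays, so that a level can be compared between arrays for a gene but not between genes. A change is a difference of mean log2 Signal, given with its standard error (SE) from a limma model over all 15 arrays, and a gene was called changed at a Benjamini-Hochberg adjusted p under 0.05 over 5588 genes. Before normalisation the median Signal of yeast probe sets was 548.2 to 933.8 per array, that of probe sets for another species 1.8 to 2.9, and 98.4 to 99.3% of yeast probe sets were called present. 3 arrays were set apart after seeing the data: untreated wild type replicate 2, yap1 replicate 1 and double mutant replicate 3. In pairs of replicates that held one of them, the SD of the log2 differences across genes was 0.241 to 0.374, and in all other pairs it was 0.191 to 0.232. CIN5 read highest in its group on each of these 3 arrays, and its results and those of YAP6 are given with and without them.

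**Figure D1:**
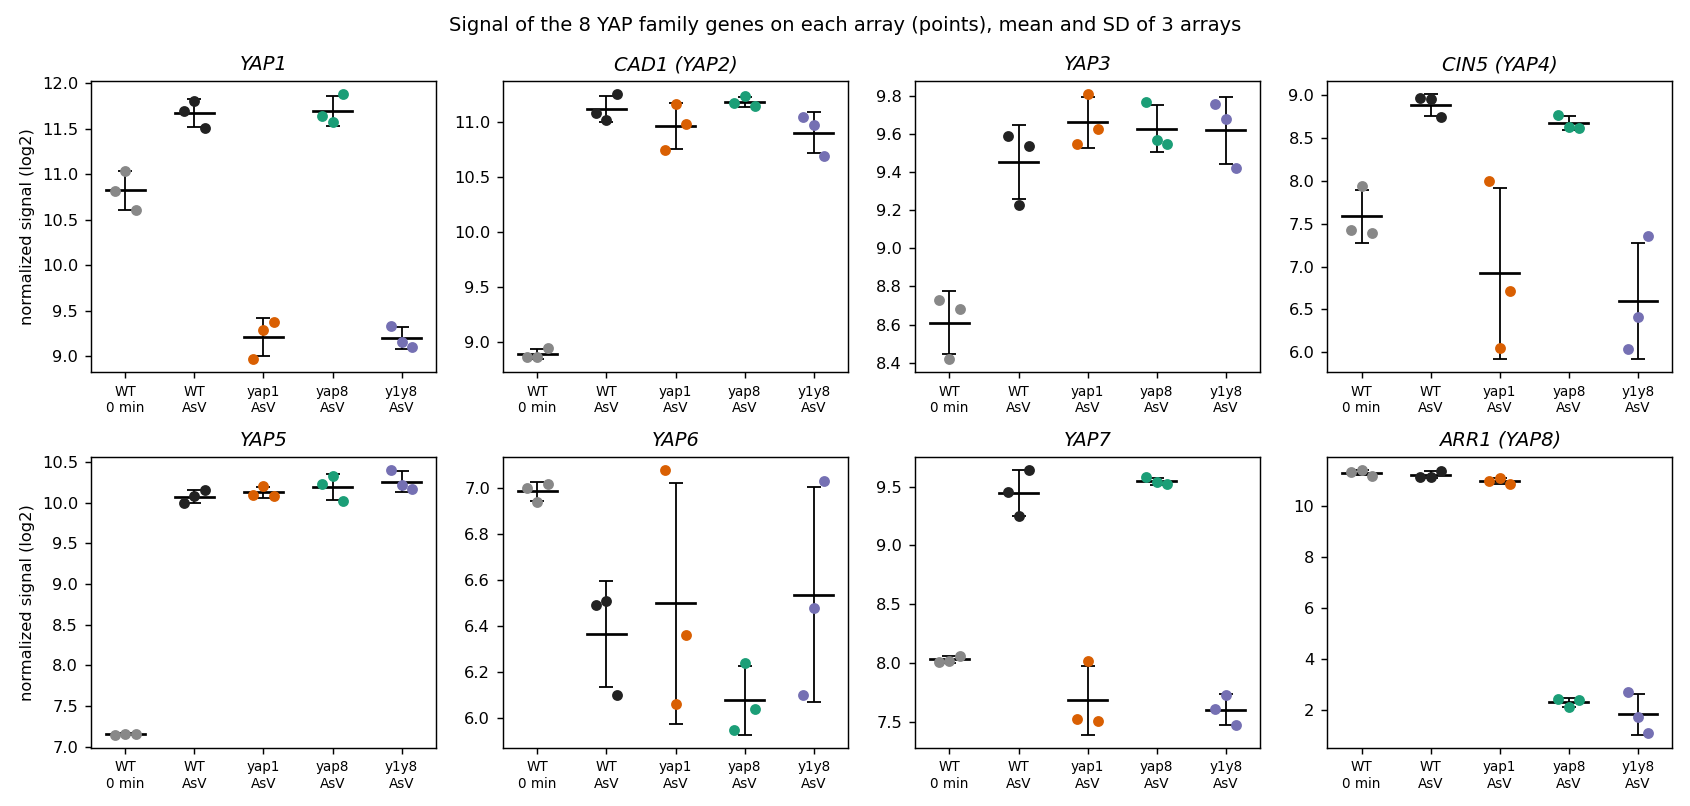
Normalised Signal of each Yap family gene on each of the 15 arrays, on a log2 scale, by group; each panel has its own axis, points are arrays, horizontal lines are group means and error bars are SDs of 3 arrays. YAP5, CAD1 and YAP3 stand higher in all 4 arsenate groups than in untreated cells, CIN5 and YAP7 stand high under arsenate in wild type and yap8 but not in yap1 or the double mutant, and ARR1 is near the bottom of the scale in yap8 and the double mutant.

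YAP1 and ARR1, the deleted genes, checked the labels. YAP1 Signal was 1807.0, 2098.5 and 1558.1 in untreated wild type and 3325.5, 3601.9 and 2911.0 in wild type with arsenate. It was 502.2, 626.8 and 660.3 in yap1, 3194.1, 3041.0 and 3779.0 in yap8, and 643.3, 573.0 and 550.4 in the double mutant. All 6 arrays labelled as lacking YAP1 were below all 9 others, yet each still called the probe set present. Against treated wild type, YAP1 fell by 2.46 ± 0.13 on the log2 scale in yap1 (5.52-fold, adjusted p = 1.5e-08) and by 2.48 ± 0.13 in the double mutant (5.56-fold, adjusted p = 1.22e-08). Neither the deleted stretch nor the position of the YAP1 probes was given, so this probe set is an incomplete check of the labels, and the source of the remaining signal was not tested.

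ARR1 Signal was 2591.8, 2706.9 and 2343.3 in untreated wild type, 2283.9, 2291.3 and 2669.9 in treated wild type and 2018.3, 2217.1 and 1875.8 in yap1. It was 5.3, 4.2 and 5.2 in yap8 and 6.4, 3.3 and 2.1 in the double mutant, where it was called absent on all 6 arrays. Since an absent probe set has only a bound, its fold is given against the lowest yeast probe set called present on the same array, or its own value if higher. On that measure ARR1 was lower than in treated wild type by at least 391-fold in yap8 (adjusted p = 4.06e-10) and by at least 423-fold in the double mutant (adjusted p = 2.11e-11). With 16 added to each value before the logarithm these bounds were 109-fold and 111-fold, so each holds only for its own scaling.

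A gene beside YAP1 was also lower. GIS4, the next gene after YAP1 in the gene order of the R64 assembly and a gene named here after its values were seen, had a Signal of 1991.2, 1948 and 2035.1 in treated wild type and 352, 347.1 and 335.3 in yap1. In the double mutant it read 391.2, 368.5 and 490.4, and in yap8 1977.5, 2119 and 1975.1. GIS4 therefore fell with both YAP1 deletions, by 2.53 ± 0.09 log2 in yap1 (adjusted p = 2.33e-10) and by 2.27 ± 0.09 in the double mutant (adjusted p = 5.2e-10), and changed by 0.02 ± 0.09 in yap8. Of the other 3 genes looked at around YAP1, ERG6, a sterol methyltransferase gene, fell by 0.42 ± 0.07 in yap1 (adjusted p = 0.000547), while MIN4 (0.25 ± 0.08) and TRM12 (-0.01 ± 0.12) were not called there. In the double mutant ERG6 changed by -0.28 ± 0.07 (adjusted p = 0.0103) and MIN4 by 0.31 ± 0.08 (adjusted p = 0.0199), and TRM12 (0.03 ± 0.12) was not called. On one side of ARR1, SGE1 (-0.21 ± 0.17) and YPR196W (-0.08 ± 0.12) were not called in yap8, and on the other its known targets ARR2 (-2.52 ± 0.13) and ARR3 (-1.76 ± 0.16) were lower. An effect of losing Yap1 and an effect of the deletion on its neighbour cannot be told apart for GIS4.

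Exposure of wild type to arsenate asked which family genes respond to this arsenic oxyanion. 6 of the 8 genes rose (YAP5, CAD1, YAP7, CIN5, YAP1 and YAP3), YAP6 fell, and ARR1 was not called. Of all genes, 41.9% were called higher and 39.2% lower, so a call in itself sets the family little apart. The median change was 1.07 over the 8 genes and 0.03 over all genes. Counted from the largest rise among 5588 genes, YAP5 stood at place 94, CAD1 at 192, YAP7 at 562, CIN5 at 646, YAP1 at 1164, YAP3 at 1181, ARR1 at 3048 and YAP6 at 4110.

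YAP1, regulator of the oxidative stress response, rose by 0.85 ± 0.13 log2 under arsenate (1.81-fold, adjusted p = 4.48e-05), with no overlap between the groups. ARR1 differed by -0.08 ± 0.27 (adjusted p = 0.798), with a 95% interval of -0.67 to 0.51 and overlapping groups. That interval rests on a spread shared with the groups where ARR1 was absent, whose log2 SDs were 0.18 and 0.80 against 0.11 to 0.13 in the others, and with only the 2 wild-type groups fitted the adjusted p was 0.461. The levels of YAP1 ran from yap8 and treated wild type, between which no difference was called (adjusted p = 1), through untreated wild type to yap1 and the double mutant, again with none called between them (adjusted p = 0.992). In yap1 the 3 ARR1 arrays were below all 6 wild-type arrays. The difference from treated wild type was -0.25 ± 0.27 (adjusted p = 0.581, and 0.11 with only those 2 groups fitted). That from untreated wild type was -0.32 ± 0.27 (adjusted p = 0.287), which was called with only those 2 groups fitted (adjusted p = 0.0165) and with an offset of 16 (adjusted p = 0.00577).

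**Figure D2:**
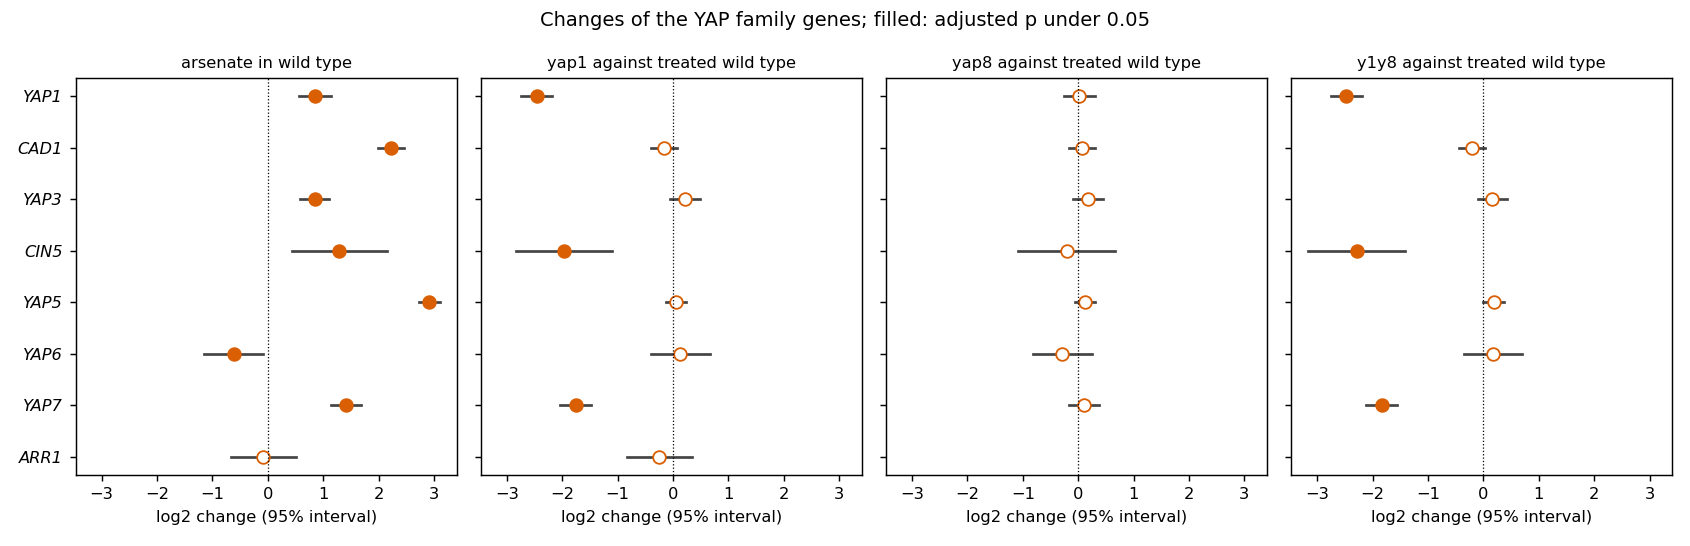
Log2 change of each Yap family gene with its 95% interval (bars) in the arsenate comparison and in each mutant against treated wild type; filled points have an adjusted p under 0.05. Under arsenate YAP5 (2.91) and CAD1 (2.22) lie farthest right and YAP6 (-0.62) lies left of 0, and in yap1 and the double mutant YAP1, CIN5 and YAP7 lie left of 0; ARR1 is left out of the yap8 and double mutant panels because it was absent there.

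YAP5, CAD1 and YAP3 were higher in all 4 arsenate groups than in untreated wild type. YAP5, whose product senses high iron and induces vacuolar iron import, had the tightest values of the family in untreated cells. Its Signal was 142.0, 143.3 and 142.9 without arsenate and 1015.3, 1079.3 and 1132.3 in treated wild type. It was 1089.9, 1174.6 and 1081.5 in yap1, 1202.7, 1285.3 and 1034.8 in yap8 and 1353.3, 1184.1 and 1144.9 in the double mutant. Every treated array was above every untreated one, and in wild type the rise was 2.91 ± 0.09 (7.53-fold, adjusted p = 3.06e-12). Among the 4 treated groups no difference between neighbours in the order of levels was called (adjusted p = 0.618 to 0.718). Against treated wild type the YAP5 difference was 0.05 in yap1 (95% interval -0.13 to 0.24), 0.12 in yap8 (-0.06 to 0.31) and 0.19 in the double mutant (adjusted p = 0.142), whose arrays all lay above those of treated wild type.

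CAD1, the paralogue of YAP1 and named for the cadmium tolerance it gives in extra copies, read 466.4, 469.2 and 493.4 in untreated cells and 2168.4, 2072.2 and 2435.8 in treated wild type. Its Signal was 1712.2, 2289.9 and 2021.9 in yap1, 2311.5, 2404.3 and 2254.7 in yap8, and 2111.4, 2008.4 and 1656.5 in the double mutant. The untreated arrays were apart from all 12 treated ones, and the rise in wild type was 2.22 ± 0.11 (4.66-fold, adjusted p = 4.45e-10). In yap1 CAD1 was still 2.07 ± 0.11 above untreated wild type (adjusted p = 9.3e-10), and its difference from treated wild type was -0.16 (95% interval -0.39 to 0.08, adjusted p = 0.358). The double mutant lay below yap8 on every array, but the difference of -0.28 ± 0.11 was not called (adjusted p = 0.0931).

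YAP3, a family member with a less defined role, read 425.0, 342.2 and 409.6 in untreated cells and 771.9, 601.7 and 744.2 in treated wild type. Its Signal was 750.2, 899.7 and 794.2 in yap1, 874.0, 757.6 and 748.0 in yap8 and 865.1, 821.8 and 685.2 in the double mutant. The rise in wild type was smaller than that of YAP5 or CAD1, at 0.85 ± 0.12 (1.80-fold, adjusted p = 2.4e-05), and the groups did not overlap. The 4 treated groups overlapped, and no difference between neighbours in their order was called (adjusted p = 0.381 to 0.98).

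CIN5 and YAP7 rose in wild type under arsenate and were lower in cells without Yap1. CIN5, linked to tolerance of salt and osmotic stress, read 173.0, 246.3 and 168.3 in untreated cells and 499.3, 494.7 and 428.7 in treated wild type. Its Signal was 436.4, 396.8 and 394.1 in yap8, 255.5, 66.1 and 104.9 in yap1 and 65.6, 85.0 and 162.8 in the double mutant. The yap1 and double mutant arrays were all below the treated wild-type and yap8 arrays, and their highest values came from the 2 mutant arrays that stood apart. The rise under arsenate was 1.29 ± 0.40 (2.45-fold, adjusted p = 0.00899). Against treated wild type CIN5 was 3.91-fold lower in yap1 (-1.97 ± 0.40, adjusted p = 0.00378) and 4.88-fold lower in the double mutant (-2.29 ± 0.40, adjusted p = 0.00115). Without the 3 arrays that stood apart these changes were 1.47, -2.51 and -2.66, all called.

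In yap1 with arsenate, CIN5 was not called against untreated wild type (-0.67 ± 0.40, adjusted p = 0.136), but it was without yap1 replicate 1 (-1.21, adjusted p = 0.0032) and without the 3 arrays (-1.03, adjusted p = 0.000419). Leaving out yap1 replicate 2 instead gave -0.24 (adjusted p = 0.569). In the double mutant it was below untreated wild type by 0.99 ± 0.40 (adjusted p = 0.0348), a call lost without untreated replicate 2 (-0.82) or double mutant replicate 1 (-0.71) or 2 (-0.90) and kept without the 3 arrays (-1.19, adjusted p = 0.000149). In the order of its levels, treated wild type and yap8 were not called different (adjusted p = 0.996), yap8 was above untreated wild type (adjusted p = 0.0231, lost at 0.99 to 1.04 without untreated replicate 1 or 3 or yap8 replicate 1, and 1.26 with an adjusted p of 4.42e-05 without the 3 arrays), and no difference was called between yap1 and the double mutant (adjusted p = 0.941). Without the 3 arrays CIN5 changed by -0.21 in yap8 against treated wild type, by -2.45 in the double mutant and -2.30 in yap1 against yap8, and by -0.16 in the double mutant against yap1; the 2 changes against yap8 were called.

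YAP7, paralogue of YAP5 and known as a repressor of the nitric oxide oxidoreductase gene YHB1, read 258.4, 259.7 and 266.3 in untreated cells and 698.4, 606.8 and 796.8 in treated wild type. Its Signal was 763.8, 745.8 and 735.9 in yap8, 184.1, 260.2 and 182.1 in yap1 and 195.5, 212.9 and 177.6 in the double mutant. The YAP7 arrays fell into a high set, treated wild type and yap8, and a low set, the other 3 groups, with no value in common. YAP7 rose by 1.41 ± 0.13 in wild type under arsenate (2.66-fold, adjusted p = 2.12e-07). In yap1 it was below treated wild type by 3.38-fold (-1.76 ± 0.13, adjusted p = 3.46e-07), and in the double mutant by 3.57-fold (-1.84 ± 0.13, adjusted p = 2.08e-07). The paralogue YAP5 changed by 0.05 and 0.19 in the same 2 comparisons, with a 95% interval of -0.13 to 0.24 in yap1 against -2.04 to -1.48 for YAP7.

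YAP7 was also below untreated wild type, by 0.35 ± 0.13 in yap1 (adjusted p = 0.024, groups overlapping) and by 0.42 ± 0.13 in the double mutant (adjusted p = 0.00776). Both calls were lost without the 3 arrays that stood apart, at -0.27 (adjusted p = 0.132) and -0.36 (adjusted p = 0.0506). The yap1 call was also lost without untreated replicate 3 (-0.33), without yap1 replicate 1 or 3 (-0.26 for each), and when only the groups compared were fitted (adjusted p = 0.0625).

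YAP6, paralogue of CIN5 and likewise linked to salt tolerance, was the family member that fell. Its Signal was 128.0, 122.6 and 129.4 in untreated cells and 89.6, 91.3 and 68.6 in treated wild type. It was 135.2, 66.5 and 82.3 in yap1, 62.0, 75.5 and 66.0 in yap8 and 68.8, 89.0 and 130.9 in the double mutant. Apart from yap1 replicate 1 and double mutant replicate 3, every treated array was below every untreated one. The fall in wild type was 0.62 ± 0.25 log2 (-0.62, 1.54-fold, adjusted p = 0.0324). That call was lost with median centring (-0.35, adjusted p = 0.201) and when any 1 untreated array (-0.64 to -0.60) or treated wild-type replicate 3 (-0.49) was left out, and kept without the 3 arrays (-0.64, adjusted p = 0.0027).

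In yap8 YAP6 was below untreated wild type by 0.91 ± 0.25 (-0.91, adjusted p = 0.0038), and by -0.93 without the 3 arrays (adjusted p = 0.000203). In yap1 it differed by -0.49 ± 0.25 (adjusted p = 0.0829) and in the double mutant by -0.45 ± 0.25 (adjusted p = 0.107). Without the 3 arrays these were called, at -0.80 (adjusted p = 0.00119) and -0.72 (adjusted p = 0.0024). Leaving out yap1 replicate 1 alone gave -0.78 (adjusted p = 0.00529), and double mutant replicate 3 alone -0.69 (adjusted p = 0.0165). The values shrank to -0.26 without yap1 replicate 2, to -0.23 without double mutant replicate 1, and to -0.20 and -0.18 with median centring. Against treated wild type YAP6 differed by 0.13 in yap1, 0.17 in the double mutant and -0.29 in yap8, and without the 3 arrays by -0.16, -0.08 and -0.29, none called. Against yap8 it differed by 0.42 in yap1 and 0.46 in the double mutant, and without them by 0.13 and 0.21, none called; the double mutant differed from yap1 by 0.04 with the 3 arrays and by 0.08 without. No difference between neighbours in the order of YAP6 levels was called in the fit on all arrays (adjusted p = 0.107 to 0.989).

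The 3 mutants were each set against the same treated wild-type arrays, so these comparisons share their control. The counts include the deleted genes, whose falls were fixed by the strains: YAP1 in yap1, ARR1 in yap8 and both in the double mutant. Apart from these, the members called lower were CIN5 and YAP7, in yap1 and in the double mutant. In yap1, 3 of 8 family genes were lower (YAP1, CIN5 and YAP7) and none higher, where 9.34% of all genes were lower and 9.61% higher. In the double mutant 4 of 8 were lower, the same 3 genes and ARR1, and none higher, where 9.88% of all genes were lower and 10.1% higher. In yap8 ARR1 alone of the 8 was lower and none was higher, where 0.0895% of all genes were lower and 0.0358% higher; the other 7 differed by -0.29 to 0.17 (adjusted p = 0.923 to 1). Without the 3 arrays that stood apart, the members called still numbered 3 in yap1, 4 in the double mutant and 1 in yap8, and 7 under arsenate. These counts again include the deleted genes. Of all genes 11 were called in yap8 without those arrays, and the shares above are those of the fit on all arrays. The intervals for yap8 were narrow for YAP5 (-0.06 to 0.31) and wide for CIN5 (-1.08 to 0.66).

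Between mutants, the double mutant differed from yap1 in ARR1 alone of the 8, at least 357-fold lower, where 0.0895% of all genes were lower and 0% higher. Any called difference of YAP1 or ARR1 between these mutants was fixed by the strains. In the double mutant against yap1, CIN5 differed by -0.32 (95% interval -1.19 to 0.55) and YAP7 by -0.08 (-0.36 to 0.20). Against yap8, the double mutant was lower in YAP1 (-2.50 ± 0.13), CIN5 (-2.08 ± 0.40, adjusted p = 0.00238) and YAP7 (-1.94 ± 0.13, adjusted p = 1.14e-07), and in none of the 8 higher, where 9.97% of all genes were lower and 9.22% higher. In yap1 against yap8 the same 3 genes were lower, with CIN5 at -1.76 ± 0.40 (adjusted p = 0.00683) and YAP7 at -1.86 ± 0.13 (adjusted p = 1.69e-07), and ARR1 was at least 330-fold higher, where 10.6% of all genes were lower and 11.1% higher.

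Against untreated wild type, genotype, arsenate and time changed together and cannot be told apart. The deleted genes are among those counted as lower here. In yap1 3 of 8 genes were higher (CAD1, YAP3 and YAP5) and 2 lower (YAP1 and YAP7), where 42.6% of all genes were higher and 39.2% lower. In yap8 6 were higher and 2 lower, where 42.6% of all genes were higher and 39.4% lower. In the double mutant 3 were higher and 4 lower, where 42.4% of all genes were higher and 39.5% lower. The 3 higher genes there were CAD1 (2.01 ± 0.11), YAP3 (1.01 ± 0.12) and YAP5 (3.10 ± 0.09), so a rise against untreated cells was measured for them with both YAP1 and ARR1 deleted.

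An interaction contrast asked whether the double loss differed from the sum of the single losses. ARR1, absent in both yap8 and the double mutant, gives no test there, and neither does YAP1, deleted in both yap1 and the double mutant. Of the remaining members limma called 0, and 0 had an unadjusted p under 0.05. Their values ran from -0.22 for YAP3 to 0.33 for YAP6, and no other tool was run. For CIN5 the value was -0.11 with a 95% interval of -1.34 to 1.12, and 0.05 without the 3 arrays. For YAP6 it was 0.37 without them, and for YAP7 the interval was -0.58 to 0.21. Of all genes 0% were called higher and 0.0537% lower, which were ARR2, ARR3 and FRM2.

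Genes known as targets of the family were described from lists compiled from general knowledge. These lists were chosen with earlier results of these data known, so their counts beside the shares of all genes describe and do not test. Of 16 Yap1 targets, 15 rose under arsenate, beside 41.9% of all genes, 14 were lower in yap1, beside 9.34%, and 14 in the double mutant, beside 9.88%. In yap8 none was called, beside 0.0358% of all genes higher and 0.0895% lower, and 0 had an unadjusted p under 0.05. Their median change was 1.48 under arsenate, -1.62 in yap1, -1.62 in the double mutant and -0.02 in yap8, where the medians of all genes were 0.03, 0.05, 0.05 and 0.01. SRX1, encoding sulfiredoxin, rose by 5.53 ± 0.08 and was lower by 4.74-fold in yap1 (-2.24 ± 0.08). FLR1, encoding a drug exporter, rose by 4.18 ± 0.08 and changed by -4.01 ± 0.08 in yap1. The peroxiredoxin gene AHP1 rose by 0.21 ± 0.07 and was not called in yap1 (-0.07 ± 0.07, adjusted p = 0.503).

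**Figure D3:**
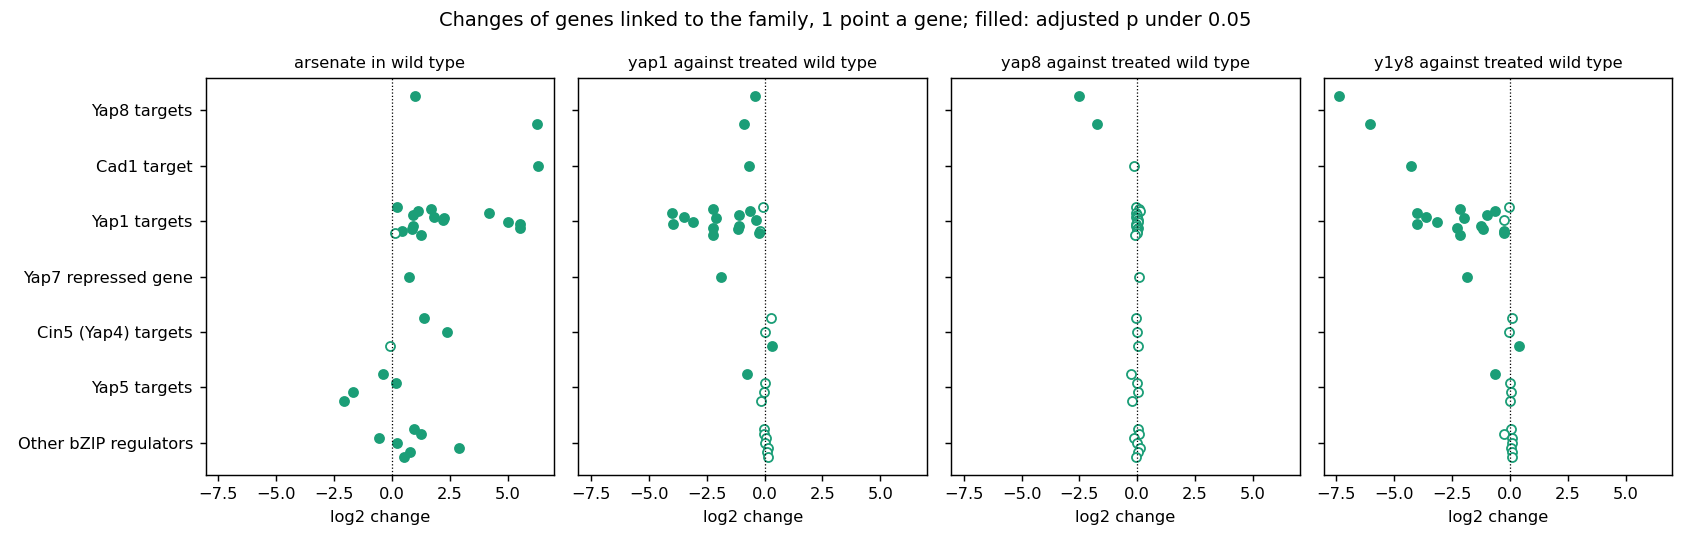
Log2 changes of genes linked to the family, 1 point a gene and 1 row a list, under arsenate and in each mutant against treated wild type; filled points have an adjusted p under 0.05. The Yap1 targets lie right of 0 under arsenate and left of 0 in yap1 and the double mutant, and in yap8 they lie between -0.10 and 0.11.

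The arsenic resistance genes ARR2 and ARR3 were lower in all 3 mutants than in treated wild type. ARR3 rose by 6.26 ± 0.16 under arsenate and changed by -0.91 ± 0.16 in yap1, -1.76 ± 0.16 in yap8 and -6.07 ± 0.16 in the double mutant. ARR2 changed by -0.42 ± 0.13, -2.52 ± 0.13 and -7.37 ± 0.13 in the same mutants. Against untreated wild type, in the double mutant ARR3 was not called (0.19, adjusted p = 0.276) and ARR2 was far lower (-6.36 ± 0.13, adjusted p = 1.81e-13). ARR2 and ARR3 are also the genes next to ARR1, so an effect of losing its product and an effect of the deletion on its neighbours cannot be told apart for them. FRM2, a nitroreductase-like gene listed as a Cad1 target, rose by 6.34 ± 0.17 and changed by -0.67 ± 0.17 in yap1, -0.14 ± 0.17 in yap8 and -4.29 ± 0.17 in the double mutant, while CAD1 itself was called in none of the 3.

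YHB1, the gene Yap7 is known to repress, moved in the same direction as YAP7: it rose by 0.76 ± 0.18 under arsenate (adjusted p = 0.00127) and changed by -1.88 ± 0.18 in yap1 (adjusted p = 3.83e-06) and -1.86 ± 0.18 in the double mutant (adjusted p = 4.01e-06). Of 4 known Yap5 targets measured, 3 fell under arsenate, where YAP5 rose, and 1 was called higher, beside 39.2% and 41.9% of all genes. TYW1, encoding an iron-sulfur enzyme of tRNA modification, changed by -2.07, the glutaredoxin gene GRX4 by -1.67 and the vacuolar iron importer gene CCC1 by -0.38, and the metallothionein gene CUP1-1 was the one called higher. CUP1-1 was the brightest probe set on all 12 treated arrays, so its normalised value was the same on each and the fitted 0.17 is not a measured size; the authors' deposited table gives a fold change of 1.72. CCC1 was also lower in yap1, by 0.75 (-0.75), where YAP5 was not called. Of 3 Cin5 targets, GCY1 (2.40 ± 0.22) and DCS2 (1.38 ± 0.33) rose under arsenate and GPP2 (-0.06 ± 0.07) was not called; in yap1, where CIN5 was lower, GPP2 rose by 0.33 ± 0.07 and the other two were not called.

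**Figure D4:**
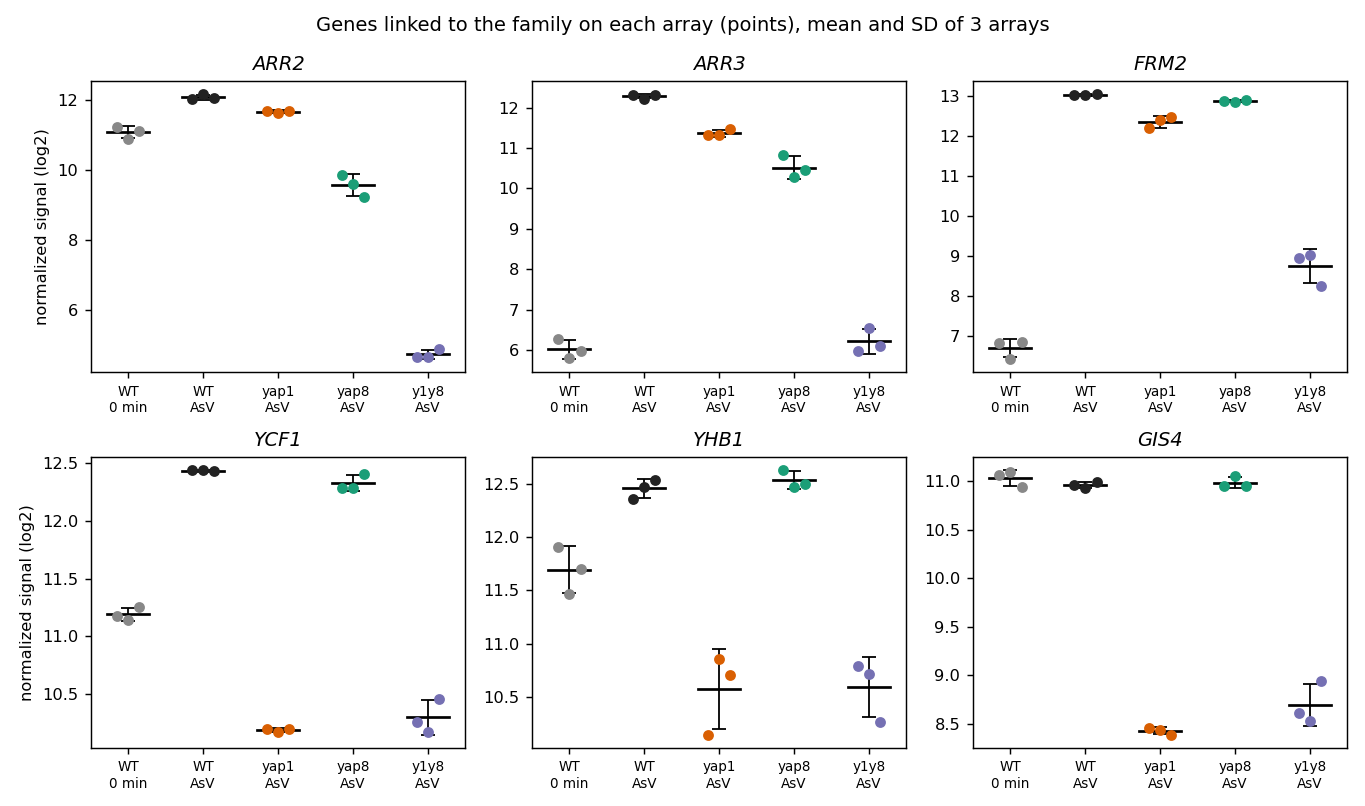
Normalised Signal, on a log2 scale, of ARR2, ARR3, FRM2, YCF1, YHB1 and GIS4 on each of the 15 arrays by group; each panel has its own axis, points are arrays, horizontal lines are group means and error bars are SDs of 3 arrays. ARR2, ARR3 and FRM2 are far lower in the double mutant than in either single mutant, and YCF1, YHB1 and GIS4 are low in both groups without YAP1.

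Of 6 genes for the redox relay and nuclear transport of Yap1, 2 rose and 2 fell under arsenate, near the shares of 41.9% and 39.2% over all genes. YBP1, the Yap1 partner, rose by 0.86 ± 0.08, PSE1, its importin, changed by -1.47 ± 0.10 and CRM1, its exportin, by -0.32 ± 0.09. HYR1, the peroxidase that oxidises Yap1, was not called under arsenate (0.08 ± 0.07) and rose by 0.23 ± 0.07 in yap1 (adjusted p = 0.0411). In the double mutant 1 of the 6 was higher and 2 were lower, beside 10.1% and 9.88% of all genes. In yap1 1 was higher and 1 lower, beside 9.61% and 9.34%. The higher gene was HYR1 in both mutants. The lower ones were TSA1 (-0.25) in yap1, and TSA1 (-0.24) and TRX2 (-0.26) in the double mutant. TSA1 and TRX2 are also counted among the Yap1 targets above. In yap8 none was called and 0 had an unadjusted p under 0.05, where 0.0358% of all genes were called higher and 0.0895% lower.

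Of 8 kinases, corepressors and other regulators upstream of the family, 3 rose and 3 fell under arsenate, again near the shares over all genes (41.9% and 39.2%). SLT2, the cell wall integrity kinase, rose by 1.67 ± 0.06 and the repressor gene NRG1 by 2.30 ± 0.11, whereas the corepressor genes CYC8 and TUP1 changed by -1.63 ± 0.09 and -1.13 ± 0.09. NRG1 was also higher in yap1, by 0.51 ± 0.11. Among 7 other bZIP regulators 6 rose and 1 fell, beside the same 41.9% and 39.2%: MET28, a factor of sulfur metabolism, rose by 2.91 ± 0.10, the same size as the rise of YAP5, and GCN4, the amino acid starvation regulator, changed by -0.54 ± 0.09. None of these 7 was called in yap1 or yap8, with 0 at an unadjusted p under 0.05, or in the double mutant, with 1. Of all genes, 9.61% were called higher and 9.34% lower in yap1, and 10.1% and 9.88% in the double mutant. In yap8 the shares were 0.0358% and 0.0895%.

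Mating-type and marker genes were read as checks of the strains. In untreated wild type the mean Signal was 3020 (STE3) to 6810 (MF(ALPHA)1) for the alpha-specific genes and 27.4 (ASG7) to 94.4 (STE2) for the a-specific genes. Since levels cannot be compared between genes, these readings are an incomplete check of mating type. Under arsenate, where 39.2% of all genes were lower, 4 of 4 alpha-specific genes fell. 3 of 6 a-specific genes were called lower, all from such low readings. Of them STE2 and AGA2 were called present on all 3 arrays of every group, and MFA2 on 0 arrays of any group. In yap1 1 of the 4 alpha-specific genes was higher, the receptor gene STE3 (0.35 ± 0.10), and 1 lower, the alpha-factor gene MF(ALPHA)2 (-3.16 ± 0.21). Of all genes, 9.61% were higher there and 9.34% lower. Of 5 auxotrophy marker genes measured, 1 rose and 2 fell under arsenate, near the shares over all genes (41.9% and 39.2%), with LYS2 called present on 0 arrays and MET17 on 0 untreated ones. URA3 was higher in yap8 (0.53 ± 0.09, adjusted p = 0.0441) and in the double mutant (0.78 ± 0.09, adjusted p = 2.87e-05), and its part in the results on the family was not tested.

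For each member the 3 named genes with the most similar profile over the 15 arrays were found among 5080 genes, as the root mean square difference of log2 Signal after centring each gene on its mean. The nearest to YAP1 were YCF1 (0.30), YHB1 (0.34) and MMT1 (0.36), against an SD of 1.17 for YAP1 itself, whose profile includes its own deletion on 6 arrays. The nearest to CIN5 were AIM33 (0.44), YCF1 (0.46) and CCS1 (0.52), and to YAP7 TRS31 (0.15), CAF130 (0.20) and CCS1 (0.22). The SDs of CIN5 and YAP7 themselves were 1.06 and 0.9. CCS1, the copper chaperone gene, was thus among the 3 nearest to both genes, though less close to CIN5 for its SD.

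Nearest to YAP5 were MOH1 (0.12), MET5 (0.12) and ATG41 (0.13), to CAD1 REC8 (0.12), PXA2 (0.12) and CTH1 (0.13), and to YAP3 SNU71 (0.07), ECM2 (0.09) and MRX10 (0.10). Nearest to YAP6 were HOF1 (0.20), RHO5 (0.20) and COQ6 (0.21). The SDs of the members themselves were 1.25 for YAP5, 0.9 for CAD1, 0.44 for YAP3 and 0.42 for YAP6. For ARR1 the measure ranked ARR2, TOS6 and SVS1 first, at 2.72 to 3.73, but its profile was set by the deletions and by background values on 6 arrays, so no likeness is read from it.

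The authors' deposited table for arsenate in wild type lists 6 of the members, with fold changes of 6.61 for YAP5, 4.73 for CAD1, 2.54 for YAP7, 2.45 for CIN5, 1.82 for YAP3 and 1.55 for YAP1. The authors' deposited table for yap1 gives -3.86 for YAP1, -3.55 for YAP7 and -3.23 for CIN5, with bounds of -2.0 and -7.97 for CIN5, the widest of the 3. The authors' deposited table for yap8 gives ARR1 at -163.01, with bounds of -103.06 and -382.44, where a negative sign marks a fold decrease. This is a smaller fall than the 391-fold bound above on quantile-normalised Signal, and how the authors scaled their values is not known.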

How the data were processed

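Each of the 15 arrays came as a table of probe-set intensity (Signal) with a detection call, deposited by the authors; per the submitters' processing notes Partek was used, and how probes were summarised was not stated. A second deposited file holds the authors' tables of fold changes with bounds, a signed score; 24 of its columns, 18 of them detection calls, were not used, and 2 lines of its arsenate table were emptied for this work. Of 10928 probe sets, 5638 had 1 yeast gene (5498 from the platform annotation, 140 from the authors' tables), giving 5588 genes; for 48 genes with several, the probe set of highest mean was used.

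Signal was quantile-normalised over all probe sets, floored at 1 and put on a log2 scale. Per the labels, 5 groups of 3 were fitted together in limma 3.58.1 (R 4.3.3), without a replicate block, with 11 contrasts and Benjamini-Hochberg adjustment over all genes, threshold 0.05. The number of arrays limits the precision. The scripts were tested on simulated data. Alternatives covered the normalisation, offset, filter, prior, samples fitted, replicate block and each array left out. The members and gene lists were chosen with earlier results of these data known. Genes named are the 8 members, those lists and, per member, the 3 nearest profiles; CUP1-2 and TRP1 were not measured. Gene order is from RefSeq R64.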

Additional observations from a re-analysis of the deposited data

Results flagged for a closer look

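In the interaction contrast, the double mutant differed from the sum of the 2 single losses for 3 genes linked to the family. The interaction term was -4.43 for ARR2, -3.39 for ARR3 and -3.48 for FRM2 on the log2 scale, by limma over all genes (adjusted p = 2.15e-08, 3.65e-06 and 3.65e-06). No family member was called in that contrast, which gives no test for the deleted genes YAP1 and ARR1.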

How the results depend on the processing

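Of 43 called changes of single members, 38 kept their direction and call under all 8 alternatives, each array left out and the removal of the 3 arrays that stood apart (an alternative chosen after seeing the data), 5 lost their call somewhere and 0 reversed. The 43 include the called differences of YAP1 and ARR1 that were fixed by the deletions, so the 38 are not all a test of stability. Besides the lost calls named in the report, the CIN5 call in the double mutant against untreated wild type was lost with median centring (-0.85, adjusted p = 0.0637). For ARR1 in yap1 against untreated wild type (-0.32), a call appeared with an offset of 16 (adjusted p = 0.00577) and with only the compared groups fitted (adjusted p = 0.0165). Of 45 uncalled values 16 changed sign somewhere; the cause was not tested. Values of ARR1 between yap8 and the double mutant, and its interaction, are background readings of an absent probe set and say nothing about stability (interaction 0.04 with median centring, 0.17 with the offset, 0.14 without the 3 arrays and -0.65 to 0.15 without 1 array; double mutant against yap8 called at -0.89 without double mutant replicate 1). In the interaction, YAP5 went to -0.01 with median centring, and CIN5 to 0.05 without the 3 arrays. Without those arrays YAP3 in the double mutant against yap8 was 0.09, and YAP6 against treated wild type was -0.08 in the double mutant and -0.16 in yap1; over all genes the count called was 5 instead of 3 for the interaction and 11 instead of 7 for yap8.

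Leaving out 1 array at a time, the interaction ranged from -0.55 to 0.43 for CIN5, -0.16 to 0.06 for YAP1 and -0.08 to 0.08 for YAP5. That of YAP1, deleted in both yap1 and the double mutant, gives no test. The double mutant minus yap1 ranged from -0.17 to 0.05 for CAD1, -0.76 to 0.22 for CIN5, -0.13 to 0.07 for YAP1, -0.11 to 0.05 for YAP3, -0.21 to 0.33 for YAP6 and -0.17 to 0.09 for YAP7, and all genes called from 4 to 9 against 5 on all arrays, with 9 reached without yap1 replicate 2. The double mutant minus yap8 ranged from -0.08 to 0.09 for YAP3 and -0.02 to 0.13 for YAP5. Against treated wild type, YAP1 in yap8 ranged from -0.07 to 0.10, and YAP6 from -0.08 to 0.39 in the double mutant and -0.16 to 0.35 in yap1; yap1 minus yap8 for YAP3 ranged from -0.04 to 0.11.

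Correlations of deviations between same-numbered arrays of different groups ran from -0.33 to 0.41 over 30 pairs, and between differently numbered arrays from -0.40 to 0.36. No shared deviation by number was thus seen, but 3 arrays per group cannot show that the samples were unpaired. With the replicate number as a block, 7 members were called under arsenate, 3 in yap1, 1 in yap8 and 4 in the double mutant, the same counts as without it, and the call of no member in these 4 comparisons changed. Of all 5588 genes, 2341 were then called higher and 2180 lower under arsenate, and 491 and 502 in yap1. In yap8 these were 0 and 5, and in the double mutant 507 and 526. The member counts include the deleted genes, whose falls were fixed by the strains.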
